A study of Mus musculus with 24 samples.

Results

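The regions described here are the places in the retina of 17-day-old mice where SOX8 was mapped to chromatin that carries the histone mark H3K27ac but not the mark H3K4me3. They are 393 of the 2400 peaks in the deposited postnatal day 17 (P17) SOX8 list, or 16.4% (95% Wilson interval 15.0 to 17.9%), and 393 of 349901 peaks in all 8 deposited lists. A peak was taken when it overlapped at least 1 bp of a P17 H3K27ac peak and no base of a P17 H3K4me3 peak, so the regions were chosen by their P17 marks, which are not a result about them. The remaining P17 SOX8 peaks were 1673 that overlapped H3K4me3, of which 1623 also overlapped H3K27ac, and 334 that overlapped neither mark.

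SOX8 and SOX9 belong to the SoxE family of transcription factors, which bind DNA through an HMG box that recognises short sequences of the type ACAATG or ACAAAG. Both are known from Müller glia, the main glial cells of the retina, and SOX9 also from retinal progenitors. H3K4me3 is the usual mark of active promoters, and H3K27ac lies at active promoters and at active enhancers, so a site with H3K27ac alone has the marks commonly used to nominate an enhancer.

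The mapping was done by CUT&RUN, in which an antibody brings a nuclease to its target in isolated nuclei and the released fragments are sequenced. All 24 libraries came from wild-type mouse retina, with 600000 nuclei per reaction, at postnatal day 2 (P2) or P17. At each age 4 libraries used SOX8 antibodies (2 products, from GeneTex and Proteintech, with 2 libraries each), and SOX9, H3K4me3, H3K27ac and the nonspecific IgG control had 2 libraries each. The labels do not say whether libraries of a group came from separate animals, and all of them are whole retina, so a site present in few cells and weak binding in many cannot be told apart. Each deposited list stands for a target at an age and holds positions only: the score was 0 in every peak, no list names a replicate, and the depth is unknown. No spread between replicates can therefore be given, and the intervals and tests below describe the lists as they stand. The IgG libraries were not analysed here. As a check of the tissue label, a P17 H3K4me3 peak lay in or within 5 kb of 34 of 34 rod genes and 16 of 23 bipolar genes, where 50.9% of all protein-coding genes had one. Also above that background were 25 of 25 ribbon synapse genes, 15 of 18 photoreceptor transcription factor genes and 12 of 21 amacrine and horizontal cell genes. So were 37 of 38 genes of chromatin and transcription coregulators and 20 of 21 of glycolysis. These are gene groups and not cell types, so a high share alone does not identify the retina. The mark was at 16 of 32 Müller glia genes, 11 of 22 retinal progenitor genes and 3 of 12 cone genes. It was at 4 of 17 retinal ganglion cell genes and 6 of 22 genes of microglia, endothelium and pigment epithelium. None of these 5 lists was above the background.

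Few of the regions reach a promoter, and sequences could be read only there, from RefSeq windows (GRCm38.p6) of 250 bases before to 50 after a transcript start. A total of 46 regions held such a window whole, 55 windows from 45 genes, and 18 of those windows started more than 1 kb inside their gene, at 13 genes with an inner start. The 250 bases upstream of 4 outer gene starts are printed 5′ to 3′ on the strand of the gene, with matches to ACAATG or ACAAAG, on either strand, in capitals. They were picked after their values were seen: Gadd45b (a stress-induced signalling gene), Znrf4 and Prex1 (an activator of the GTPase Rac) because the region also overlapped P17 SOX9 and a P2 SOX list and the upstream bases hold a match, and Gng13 as the only gene of the cell type lists below with such a window.
Gadd45b, chr10:80929841-80930090, plus strand: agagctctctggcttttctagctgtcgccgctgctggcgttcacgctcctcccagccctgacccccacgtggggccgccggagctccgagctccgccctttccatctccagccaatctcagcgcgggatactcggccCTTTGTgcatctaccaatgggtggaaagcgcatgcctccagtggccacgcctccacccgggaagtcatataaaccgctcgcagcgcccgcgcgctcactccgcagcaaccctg
Znrf4, chr17:56512484-56512733, minus strand: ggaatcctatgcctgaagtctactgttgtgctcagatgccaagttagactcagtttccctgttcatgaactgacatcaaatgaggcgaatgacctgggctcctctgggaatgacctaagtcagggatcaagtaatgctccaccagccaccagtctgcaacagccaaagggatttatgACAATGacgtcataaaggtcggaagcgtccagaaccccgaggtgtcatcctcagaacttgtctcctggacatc
Prex1, chr2:166713833-166714082, minus strand: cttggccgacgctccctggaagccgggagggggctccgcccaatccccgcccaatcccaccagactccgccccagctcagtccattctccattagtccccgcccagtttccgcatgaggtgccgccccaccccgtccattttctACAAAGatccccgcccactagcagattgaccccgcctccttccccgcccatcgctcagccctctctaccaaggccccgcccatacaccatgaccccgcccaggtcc
Gng13, chr17:25716922-25717171, plus strand: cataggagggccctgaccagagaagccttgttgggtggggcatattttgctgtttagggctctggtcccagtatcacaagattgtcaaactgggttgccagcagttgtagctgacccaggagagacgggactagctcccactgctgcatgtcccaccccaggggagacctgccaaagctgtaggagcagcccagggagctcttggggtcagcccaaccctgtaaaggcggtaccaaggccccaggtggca
The match begins at position -113 from the start in Gadd45b (as CTTTGT, the reverse complement of ACAAAG), at -73 in Znrf4 and at -106 in Prex1. The Gng13 stretch has none. The Znrf4 region overlapped all 3 other SOX lists, as did the Prex1 region, while the Gadd45b region overlapped P17 SOX9 and P2 SOX9 but not P2 SOX8.

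Over the 55 windows, 13 (23.6%) held a match to either motif, against 25.7% of all 21255 windows in the table, 14.5% of the 1706 windows inside P17 SOX8 peaks at H3K4me3 and 15.8% of the 38 inside peaks with neither mark. Windows in the H3K27ac-only regions had a median GC content of 62.0%, against 66.3% at H3K4me3, 68.7% in peaks with neither mark and 56.3% in the table, and base content sets how often a short word with few G and C occurs. ACAATG was in 7.27% and ACAAAG in 18.2% of the windows in the regions, against 11.0% and 16.8% of all windows. The inverted pair of ACAATG sites spaced by any 4 bases was in 0 of the 55 windows and in 1 window of the table. These counts cover only the regions at starts in the table, and the bases of the other regions were not analysed here.

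The H3K27ac-only regions were broad. Their median width was 3598 bp (95% interval of the median over peaks 3413 to 3748 bp), with a middle range of 2572 to 4387 bp, a minimum of 1 bp and a maximum of 13023 bp. P17 SOX8 peaks at H3K4me3 had a median of 2774 bp and those with neither mark one of 3199 bp. Of the 393 regions, 25 were under 1 kb and 60 over 5 kb. No test was made of width, since a wider peak overlaps a mark more easily.

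**Figure D1:**
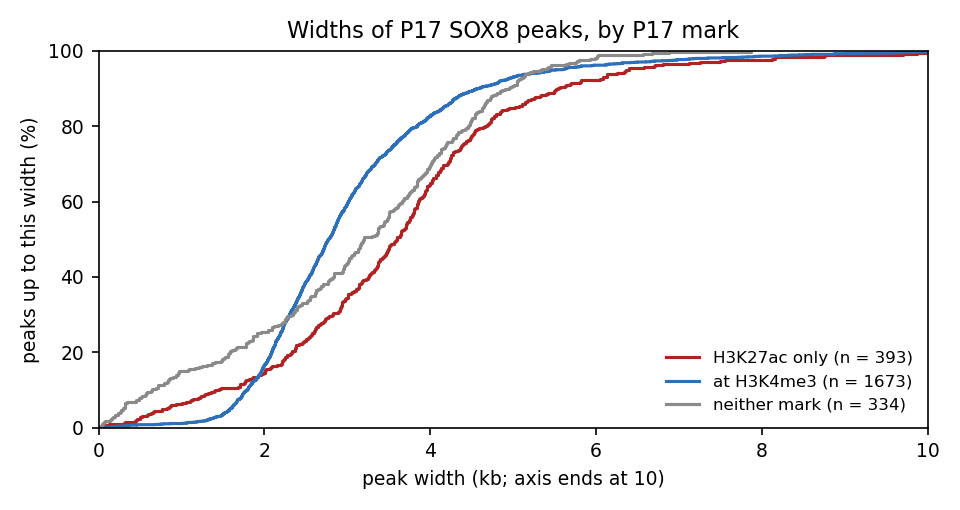
Cumulative share of P17 SOX8 peaks (vertical, percent) up to a given width (horizontal, kb, axis ending at 10 kb), with 1 line for each class by P17 mark. The line of the H3K27ac-only peaks lies to the right over most of the range, with a median of 3598 bp against 2774 bp at H3K4me3 and 3199 bp with neither mark.

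H3K27ac, which the rule required, covered most regions over much of their length. It covered 229 of them completely and 337 (85.8%) over at least 50% of their length. Peaks at H3K4me3 were covered more fully, with a lower quartile of 99.97% against 73.1% for the regions. The median was 100% in both. The widest H3K27ac peak at a region had a median width of 9917 bp, against 3268 bp for the whole P17 H3K27ac list. Wider peaks overlap more easily, so this is a description. H3K27ac came from a single peak in 370 regions and from 2 in the other 23. The nearest H3K4me3 peak was a median of 19943 bp away, with 22 regions within 1 kb of one, 135 within 10 kb and 83 more than 50 kb away. For peaks with neither mark the median was 30070 bp. Just inside the rule were a 1 bp peak in Zmiz1, a 1220 bp peak near Qprt that shares 1 bp with H3K27ac, and a 32 bp peak in Lrp8, and, on the other side, peaks at Abhd17a, Kcnj9 and Wdr6 that lay 38, 75 and 188 bp from H3K4me3. Just outside it were peaks in Xxylt1, Osgin1 and Slc39a3, which missed H3K27ac by 27, 74 and 76 bp, and peaks near Reep4 and at Napa and Prdm8, which reached H3K4me3 by 34, 37 and 40 bp.

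The regions sat in gene bodies and away from starts. The centre of 318 regions (80.9%) lay within the ends of a protein-coding gene, close to the 78.1% of peaks at H3K4me3 and 77.0% of peaks with neither mark. The place in the gene was unlike that of peaks at H3K4me3 and close to that of peaks with neither mark. Centres within 1 kb of an annotated start made up 49 regions (12.5%, Wilson interval 9.56 to 16.1%), against 68.7% of peaks at H3K4me3 and 10.8% (7.89 to 14.6%) of peaks with neither mark. Another 266 regions (67.7%, against 31.3% of all P17 SOX8 peaks and 62.9% of those with neither mark) had their centre inside a gene and over 1 kb from its ends, 21 lay within 1 kb of a 3′ end, 12 within 1 kb of an end whose strand the tables do not give, and 45 (11.5%, against 6.33% of all P17 SOX8 peaks) outside genes. A total of 37 regions (9.41%) were more than 5 kb from any protein-coding gene, against 4.62% of all P17 SOX8 peaks, 2.33% of those at H3K4me3 and 10.5% of those with neither mark. For the 246 regions whose centre fell in a single gene of known strand, the median distance from the gene start was 22219 bp, against 705 bp for peaks at H3K4me3 and 14549 bp for peaks with neither mark. When each gene was cut into 5 equal stretches from its start, these regions fell 12.2, 15.5, 19.5, 24.4 and 28.5% into them in order, whereas peaks at H3K4me3 fell 76.9% into the stretch at the start and 3.17% into the last. Peaks with neither mark fell 13.7, 14.7, 17.3, 21.8 and 32.5% into them, with intervals that overlap those of the regions in each stretch. Place is tied to the absence of H3K4me3 that chose the regions, so these values are a description without a test, and exons and introns were not assigned.

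**Figure D2:**
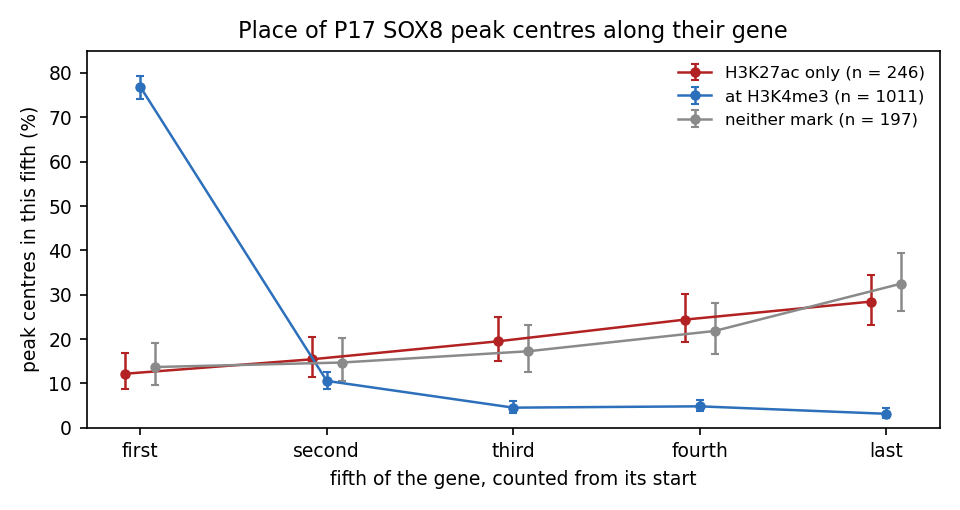
Share of P17 SOX8 peak centres (vertical, percent, with 95% Wilson intervals) in each of 5 equal stretches of the gene from its start (horizontal), for peaks in a single protein-coding gene of known strand. H3K27ac-only peaks go from 12.2% in the stretch at the start to 28.5% in the last, and peaks at H3K4me3 from 76.9% to 3.17%.

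A protein-coding gene was counted as hit when a region overlapped it or the 5 kb on either side. By this count 397 of 21887 genes (1.81%) were hit, 347 by 1 region, 41 by 2 and 9 by 3 or more. Hit genes had a median length of 24644 bp against 17169 bp for all protein-coding genes, and a longer gene can hold more regions. Of the hit genes, 286 (72.0%) had a P17 H3K4me3 peak within 5 kb, against 50.9% of all genes and 90.2% of the genes with any P17 SOX8 peak. A P17 SOX8 peak at H3K4me3 lay at 126 (31.7%), against 10.5% of all genes and 80.8% of the genes with any P17 SOX8 peak. A total of 126 regions (32.1%) had another region of the set within 50 kb. The same count was not made for the other P17 SOX8 peaks, so whether the regions lie closer together than those is not known.

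Gse1, which encodes a coregulator found with histone deacetylase complexes, had the most regions by this count. Its 10 lay from 51.1 kb to 359.6 kb downstream of the start (the gene, on chromosome 8 at 120228501 to 120581383, is 352883 bp long). Of the 10, 9 overlapped Gse1, and the last was beyond its end and overlapped the neighbouring gene Gins2. The 10 regions ranged from 597 to 10242 bp in width. P17 SOX9 overlapped 7 of them, P2 SOX9 overlapped 5 and P2 SOX8 only 1, the region at Gins2. A further 4 P17 SOX8 peaks in Gse1, between 196.6 and 307.9 kb from the start, carried H3K4me3.

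Zmiz1, a transcriptional coactivator of the PIAS-like family, had 5 regions, 15.1 to 129.1 kb from its start. P17 SOX9 and P2 SOX9 each overlapped 1 of the 5, and these were different regions. Ccdc85c, which encodes a coiled-coil protein of cell junctions, had 4, between 32.0 and 65.7 kb from its start, of which 3 overlapped P17 SOX9 and 2 overlapped P2 SOX9. The 4 regions at Gdpd5, a glycerophosphodiester phosphodiesterase gene, overlapped no other SOX list. Of these, 3 overlapped Gdpd5, and the last lay in the neighbouring gene Klhl35. Crocc (rootletin, of the ciliary rootlet), Dab2ip (a Ras GTPase-activating protein), Fam222a and Lrp8 (a reelin receptor) had 3 regions each, of which P17 SOX9 overlapped 2, 2, 0 and 2. A P17 SOX8 peak at H3K4me3 was centred between -34 and 3025 bp from the start in Zmiz1, Ccdc85c, Crocc, Fam222a and Lrp8, and Dab2ip had no such peak. In 6 of the 8 genes with 3 or more regions named here, some regions overlapped P17 SOX9 and others did not. Over all 393 regions the share with P17 SOX9 was 40.2%, so mixed genes are a description only. In Lrp8 the region without P17 SOX9 was a 32 bp peak, and in Zmiz1 a 1 bp peak was among those without it.

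**Figure D3:**
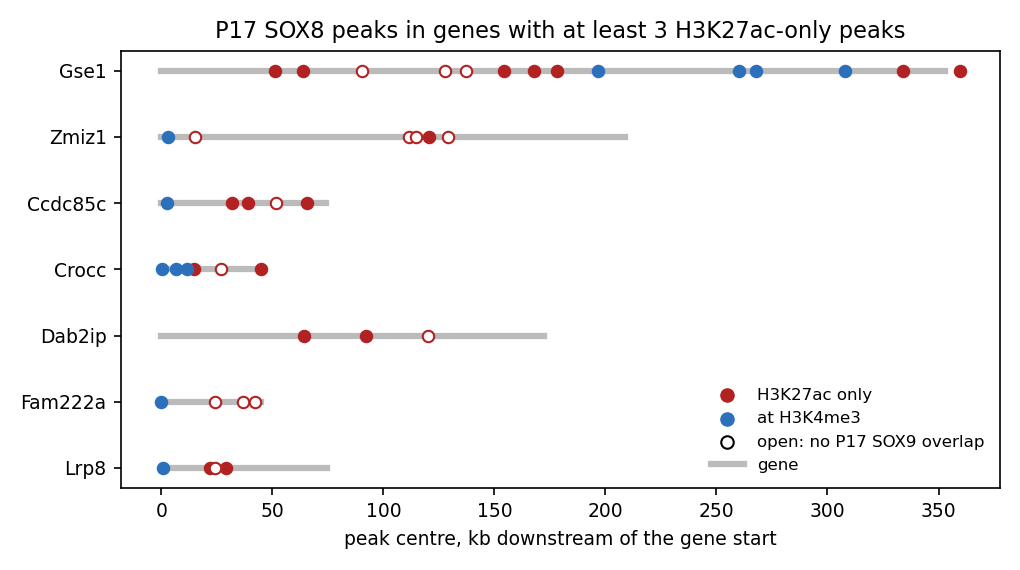
P17 SOX8 peak centres (points) in kb downstream of the gene start (horizontal) in the 7 genes with at least 3 H3K27ac-only regions and a known strand, with the gene as a grey bar. Red points are H3K27ac-only peaks, blue points peaks at H3K4me3, and open points overlap no P17 SOX9 peak; Gse1 holds 10 red and 4 blue points.

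The widest regions lay in genes of varied function. A region of 13023 bp lay in Plec, the gene of the cytolinker plectin, on chromosome 15 at 76194209 to 76207231. It overlapped P17 SOX9 and P2 SOX9, and H3K27ac covered only 3.84% of it. The 10242 bp region of Gse1 (chromosome 8, 120287243 to 120297484) came next, fully covered by H3K27ac. A region of 9875 bp spanned Chtf18 and Rpusd1, and one of 9703 bp lay in Celf4, an RNA-binding regulator of neuronal transcripts, 190975 bp from the nearest H3K4me3 peak. The others among the 10 widest were at Trmt61a (a tRNA methyltransferase subunit, 8759 bp), Src (a tyrosine kinase, 8748 bp), Elmo2 (8180 bp), Zfpm1 (a GATA cofactor, 8157 bp), Golga2 and Dnm1 (dynamin 1, of synaptic vesicle recycling, 8153 bp) and Itpk1 (an inositol phosphate kinase, 8116 bp). P17 SOX9 overlapped 6 of these 10, and those in Celf4, at Trmt61a, at Golga2 and Dnm1, and in Itpk1 had none.

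Of 280 genes on 12 lists of retinal cell types and gene groups, 18 (6.43%) had a region within 5 kb, against 1.81% of all protein-coding genes. Coregulators of chromatin and transcription had 7 of 38, glycolysis 3 of 21 and the ribbon synapse 3 of 25. Any P17 SOX8 peak lay at 25, 9 and 6 genes of these lists, against 2850 of 21887 protein-coding genes. These 3 lists thus stood above all genes for the whole P17 SOX8 list too, and the counts are not particular to the regions. Müller glia had 2 of 32, and the bipolar cell, rod and photoreceptor transcription factor lists had 1 each, of 23, 34 and 18 genes. The lists of amacrine and horizontal cells (21 genes), cone phototransduction (12), retinal ganglion cells (17), retinal progenitors (22), and microglia, endothelium and pigment epithelium (22) had 0. Genes of the coregulator and ribbon synapse lists were long, with medians of 75230 and 67135 bp against 17169 bp over all genes, and 38 of 38 coregulator genes had a P17 H3K27ac peak. How far length and acetylation go with these counts was not tested.

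The Müller glia genes were Nfix, a nuclear factor I gene, with a 2949 bp region 65616 bp downstream of its start that overlapped P17 SOX9 only, and Dkk3, a secreted Dickkopf family member, with a 2734 bp region that overlapped P2 SOX9 only. Like the region of Nfix, regions at Cacna2d4 (a calcium channel subunit of photoreceptor terminals), Elfn1 and Elfn2 (synaptic adhesion proteins, the latter with 2 regions) and Casz1 (a zinc finger factor) overlapped P17 SOX9 and neither P2 SOX list. So did the 4096 bp region counted for Reep6 (a membrane-shaping protein of rods), which lay outside that gene and overlapped Adamtsl5. At Gng13, the G protein gamma subunit of ON bipolar cells, a 2241 bp region covered the promoter printed above and overlapped P17 SOX9, and the 9875 bp region of Chtf18 lay within 5 kb of its other end.

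Among the other coregulators, Setd1b (an H3K4 methyltransferase) had a region of 4026 bp that overlapped P17 SOX9. Regions at Kdm4b (a histone demethylase, 4788 bp), Hdac7 (a deacetylase, 3138 bp), Cbx6 (a Polycomb protein, 4252 bp) and Dot1l (the H3K79 methyltransferase, 1474 and 3395 bp) overlapped no other SOX list. In glycolysis, both regions in Hk1 (hexokinase 1, 3600 and 3368 bp) and the 864 bp region in Pfkl (liver phosphofructokinase) overlapped P17 SOX9 alone. The 5623 bp region counted for Gapdh was outside that gene, 11361 bp from its start. It lay in Iffo1 and overlapped P2 SOX9.

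SOX9 was at fewer of these regions than of the SOX8 peaks at H3K4me3, and at more of them than of the peaks with neither mark. P17 SOX9 peaks overlapped 158 regions, or 40.2% (Wilson interval 35.5 to 45.1%), against 59.0% of all P17 SOX8 peaks. The share was 70.1% (1173 of 1673) at H3K4me3, a difference of -29.9 percentage points (95% Newcombe interval -35.1 to -24.5, Fisher's exact test, two-sided, adjusted p = 3.12e-27 over 6 tests). It was 25.7% (86 of 334) with neither mark, a difference of 14.5 points (7.61 to 21.1, Fisher's exact adjusted p = 4.89e-05). The order against H3K4me3 turned with the SOX9 peaks used. When only the wider 50% of each compared list was kept, 32.6% of the regions and 22.8% of the peaks at H3K4me3 overlapped SOX9, a difference of 9.80 points (Fisher's exact adjusted p = 0.000135, with 7.05e-32 to 0.000135 over 8 alternatives), so the lower share at H3K27ac-only regions holds for the whole list and not for its wide peaks.

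Where SOX9 was present it covered most of the region in most cases. The median share of a region covered was 100% over the 158 (lower quartile 83.9%, minimum 3.10%), and 95 were covered completely. Where SOX9 overlapped peaks at H3K4me3 or with neither mark, the median share was 100% too, with lower quartiles of 92.2% and 74.3%. The 152 P17 SOX9 peaks involved had a median width of 6841 bp, against 5336 bp for the whole P17 SOX9 list, and a wider peak overlaps a region more easily. Of them 128 (84.2%) themselves overlapped H3K27ac and no H3K4me3, while 22 reached an H3K4me3 peak. Over the whole P17 SOX9 list 559 of 2855 peaks (19.6%) overlapped H3K27ac and no H3K4me3, but overlap with a region chosen for H3K27ac without H3K4me3 largely sets the share, which is a description. The 128 were 22.9% of those 559. Regions without SOX9 were about as wide as those with it, with medians of 3521 and 3638 bp and overlapping intervals (3292 to 3780 and 3373 to 3853 bp). The nearest SOX9 peak to the regions without SOX9 was a median of 21010 bp away, between 40 and 5926840 bp. For peaks without SOX9 at H3K4me3 or with neither mark the median was larger, at 86277 and 37335 bp.

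**Figure D4:**
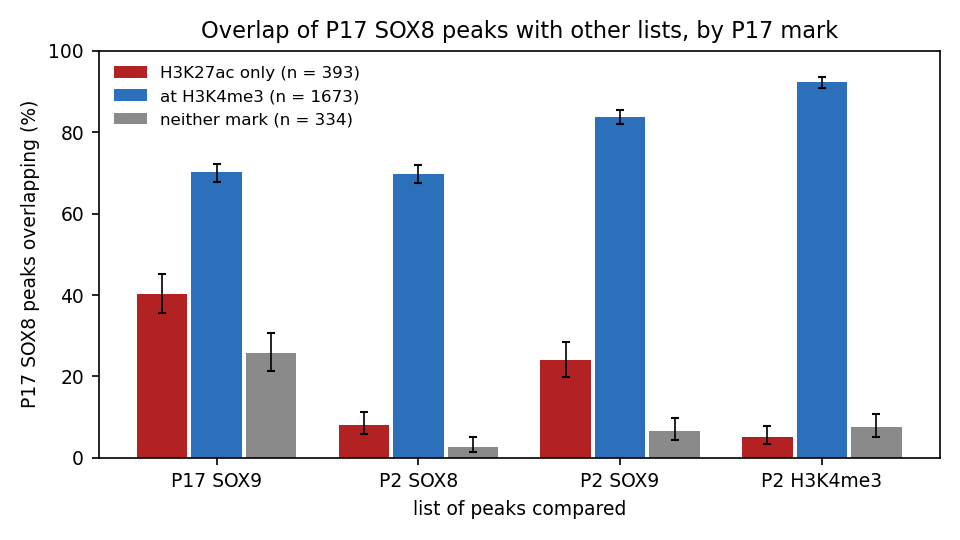
Share of P17 SOX8 peaks (vertical, percent, bars from 0, with 95% Wilson intervals) that overlap each of 4 other lists (horizontal), by P17 mark. H3K27ac-only peaks lie between the other classes for the 3 SOX lists, and for P2 H3K4me3 stand at 5.09% against 92.3% for peaks at P17 H3K4me3.

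The regions had few counterparts in the P2 SOX lists. P2 SOX8 overlapped 32 regions (8.14%, Wilson interval 5.83 to 11.3%), against 50.4% of all P17 SOX8 peaks. The share was 69.8% at H3K4me3, a difference of -61.7 points (-64.8 to -57.8, Fisher's exact adjusted p = 5.39e-118), and 2.69% with neither mark, a difference of 5.45 points (2.15 to 8.82, Fisher's exact adjusted p = 0.00184). P2 SOX9 overlapped 94 regions (23.9%, 20.0 to 28.4%), against 63.2% of all P17 SOX8 peaks. The share was 83.8% at H3K4me3, a difference of -59.9 points (-64.2 to -55.1, Fisher's exact adjusted p = 3.34e-114), and 6.59% with neither mark, a difference of 17.3 points (12.3 to 22.3, Fisher's exact adjusted p = 9.49e-11). With the wider 50% of the compared lists the differences from peaks at H3K4me3 were smaller, at -36.2 points for each factor. The 6 tests share the same 393 regions and are not independent of each other.

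Taking the SOX lists together, 186 regions (47.3%) overlapped no other SOX list and 110 (28.0%) overlapped P17 SOX9 alone, so 296 (75.3%, Wilson interval 70.8 to 79.3%) had no P2 SOX peak. P2 SOX9 alone overlapped 36, P17 SOX9 with P2 SOX9 29, and all 3 other lists 19. P2 SOX8 rarely stood without P2 SOX9, since 29 of its 32 regions (90.6%) had both, and 0 had P17 SOX9 with P2 SOX8 alone. A P2 SOX peak lay at 48 of the 158 regions with P17 SOX9 (30.4%, 23.7 to 38.0%) and at 49 of the 235 without (20.9%, 16.2 to 26.5%). These intervals overlap, and the difference was not tested. The combined counts were made for the regions only, without a share of all P17 SOX8 peaks beside them, and are a description. Lack of P2 SOX peaks is not particular to the regions. Peaks with neither mark overlapped P2 SOX8 (2.69%) and P2 SOX9 (6.59%) less often than the regions did.

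**Figure D5:**
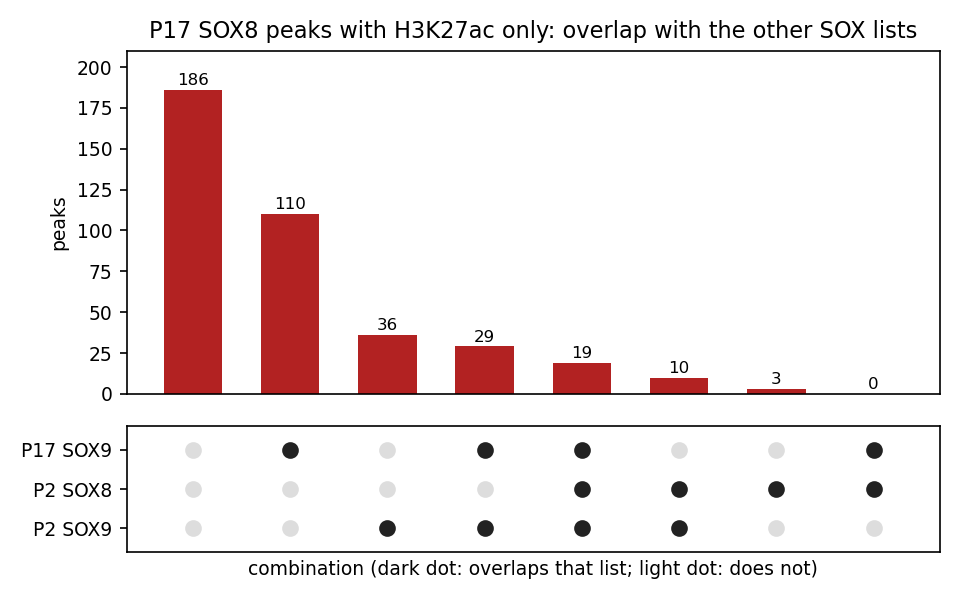
Number of H3K27ac-only P17 SOX8 regions (bars, from 0) for each combination of overlap with the 3 other SOX lists, which dark dots under the bar mark. The tallest bars are 186 regions in no other SOX list and 110 with P17 SOX9 alone.

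Of the 29 regions with both P2 factors, the widest were in Src (8748 bp, chromosome 2, 157456824 to 157465571), in Adam11 (7249 bp), in Ralgds (an activator of Ral GTPases, 6342 bp) and in the cell adhesion gene Dscaml1 (6247 bp). Others among the 10 widest were a 5543 bp region 20285 bp from Ptma and regions in Rara (retinoic acid receptor alpha, 4835 bp), at Znrf4 (4376 bp) and in Ccdc85c (4031 bp). P17 SOX9 also overlapped those in Src, Dscaml1 and Ccdc85c and at Znrf4, and not those in Adam11, Ralgds and Rara or near Ptma. The 10 widest regions without P17 SOX9 included, beyond those named, Ncs1 (a neuronal calcium sensor, 7559 bp), a region at Rxrb and Col11a2 (7120 bp), Zcchc14 (6803 bp) and a region at Yif1a, Cnih2 and Rab1b (6395 bp), and of these 4 only the last overlapped a P2 SOX list, P2 SOX9.

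The regions mostly lacked H3K4me3 at P2 as well. P2 H3K4me3 overlapped 20 of them (5.09%), against 66.2% of all P17 SOX8 peaks, 92.3% of those at P17 H3K4me3 and 7.49% of those with neither mark. P2 H3K4me3 went with P2 SOX overlap, at 15 of the 97 regions with a P2 SOX peak (15.5%) and 5 of the 296 without (1.69%), and its part in the P2 SOX shares was not tested. Among the 20 were the regions in Rara, near Ptma, of Chtf18 and Rpusd1, at Prex1 and at Gins2, beyond the end of Gse1.

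H3K27ac peaks were at nearly all of the regions at P2, in 380 (96.7%), close to the 95.8% of all P17 SOX8 peaks. The P2 H3K27ac list held 287845 peaks over 525.4 Mb, against 29909 peaks over 173.4 Mb at P17. It also overlapped 98.4% of P17 SOX8 peaks at H3K4me3 and 82.0% of those with neither P17 mark. Against the 29909 widest P2 H3K27ac peaks, the overlap was 299 regions (76.1%, Wilson interval 71.6 to 80.0%), against 48.5% of peaks at H3K4me3 and 50.6% of peaks with neither mark. The order against peaks at H3K4me3 thus turned with the width cut, since the full list gave 96.7% and 98.4%. The regions were also chosen for P17 H3K27ac and were wider than the other peaks, and wider peaks overlap more easily, so these shares are a description. Of the 186 regions found in no other SOX list, 180 (96.8%) overlapped the full P2 H3K27ac list, again close to the share of all P17 SOX8 peaks.

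The share of the regions on a chromosome was above that of the whole P17 SOX8 list on some and below it on others, with no test made. Chromosome 4 held 40 (10.2%, against 7.83% of the list), chromosome 11 held 37 (9.41% against 10.1%), chromosome 7 held 19 (4.83% against 8.67%), chromosome 19 held 8 (2.04% against 4.17%), chromosome 3 held 3 (0.763% against 2.92%), and the X chromosome 1, with 6 in the list. The regions overlapped 8 microRNA genes of the 1228 in the table, among them the neighbours Mir143 and Mir145a. No count for the other P17 SOX8 peaks is set beside this, so it is a description only.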

How the data were processed

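The authors deposited 8 peak lists of positions, in bases, 1 per target and age, whose score was 0 in every peak. Per the submitters' processing notes, Bowtie2, SEACR and the build GRCm38 were used; versions, thresholds, use of IgG and the way libraries were combined are not given in the sources used here. Longer sequencing or a looser threshold could add and widen peaks, and depth is unknown. Here, positions were counted from 1 and overlap meant at least 1 bp.

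Gene ends came from a RefSeq table (GRCm38.p6) without strand. Strand and starts came from the promoter table, which covers 79.9% of protein-coding genes, so exons and introns were not assigned. Motifs were searched on both strands of the promoter windows only. Overlap shares were compared by two-sided Fisher's exact tests with Benjamini-Hochberg adjustment over 6 tests (Python 3.11.15, SciPy 1.17.1), with 95% Wilson and Newcombe intervals that cover counting error only. The code was tested on simulated data.

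Members and gene lists were chosen with earlier results of these data known. Named regions were genes on the lists, genes with 3 or more regions, the 10 widest (of all, with both P2 SOX lists, and without P17 SOX9) and those nearest the rule's limits; some are not reported here. Alternatives were other overlap minimums, widths, lists, chromosomes and gene distances.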

Additional observations from a re-analysis of the deposited data

How the results depend on the processing

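No paired analysis was possible because the lists carry no replicate. For the same reason no replicate could be left out. The 6 overlap comparisons kept their direction and an adjusted Fisher's exact p under 0.05 in 47 of 48 settings, which included sharing set at 50% or more of the narrower peak, peaks of at least 1 kb, peaks trimmed to 500 bp, autosomes only and, chosen after the data were seen, peaks of 3 to 5 kb and the wider 50% of P17 H3K27ac. The exception was P17 SOX9 against peaks at H3K4me3 with the wider 50% of the compared lists, at 9.80 points, and the cause was not tested. The P2 SOX8 and P2 SOX9 differences from peaks at H3K4me3 ranged from -62.8 to -36.2 and from -61.3 to -36.2 points. The share inside genes and the median width moved little, and the number of regions ranged from 320 to 392 in 5 settings. Genes of the lists with a region were 28 with 50 kb on either side, where 4.84% of all genes had one, and 16 within the gene alone. Peaks without heights cannot show how strong a site is.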
